A study of Mus musculus with 34 samples.

Results

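NRF2, the transcription factor encoded by Nfe2l2, and its classical antioxidant targets were followed in the liver of juvenile mice after short-term disruption of thyroid hormones (THs). The group held 10 genes, Nfe2l2, Keap1, Nqo1, Srxn1, Gclc, Gclm, Txnrd1, Hmox1, Ephx1 and Aox1. A probe belonged to the group when the RefSeq accession that the array files give for it matched one of these gene symbols. The match itself used no measured value, whereas the 10 genes were picked with earlier results of these data known, so counts of members beside shares of all probes are descriptions. It found 14 of the 41174 probes, or 10 of the 16535 genes that could be named. Srxn1 had 3 probes, Nfe2l2 and Ephx1 had 2 probes each, and the other 7 genes had 1. Probes of 1 gene share a target transcript, so they were numbered from the brightest to the dimmest, reported separately and not treated as replicates.

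The study asked which hepatic genes respond to a short change of TH supply, with liver RNA of C57BL/6 pups collected on postnatal day 15. RNA of 34 pups, 17 of each sex, was labelled with Cy5 and hybridised against a commercial mouse reference RNA labelled with Cy3, 1 pup per array. Every value below is a log2 ratio of pup to reference or a difference between such ratios, so that a difference of 1 means a doubling. Control pups (4 males and 4 females) were nursed by untreated dams and received saline. Hypo pups (4 males and 5 females) came from dams whose water held the goitrogens methimazole (0.05%), which blocks TH synthesis, and sodium perchlorate (1%), which blocks iodide uptake, for 3 days, and they also received saline. Hypo+ pups (4 males and 3 females) had the same goitrogens and an intraperitoneal injection of T4 at 20 µg with T3 at 2 µg for every 100 g of body weight. Hyper pups (5 males and 5 females) had no goitrogen and T4 at 50 µg with T3 at 5 µg on the same basis. All injections preceded collection by 4 h. By the methods, the injected goitrogen pups on the arrays were those with serum T4 near or slightly above that of controls. Hypo+ and hyper pups differed in dose as well as in goitrogen. Pups shared litters, whose identity was inferred from animal numbers, so the pups of a group over both sexes were not all independent.

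NRF2 is held in the cytoplasm and marked for degradation by KEAP1, and oxidants or electrophiles that modify KEAP1 let NRF2 reach the nucleus. There it binds antioxidant response elements with small MAF proteins and raises genes for glutathione synthesis, thioredoxin and peroxiredoxin repair, quinone reduction and conjugation. In liver this programme is best known for the defence against reactive drugs and their metabolites. Its control acts mostly on the protein, so that the level of Nfe2l2 RNA need not follow its activity.

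The core of the antioxidant response element, TGACNNNGC on either strand (GCNNNGTCA when read on the strand of the gene), was sought in promoter windows from 250 bases before to 50 bases after each transcription start (RefSeq, GRCm38.p6). The table of promoters held 8 of the 10 genes, and Gclc and Hmox1 were not in it. A core was present for 4 of these 8 genes, once each, where 14% of all 27025 genes in the table had at least 1, and in 4 of their 10 promoters, where 12.4% of all 32851 promoters held one. Each stretch below is shown because it carries the match, which is in capitals, with 10 bases on either side, written 5′ to 3′ on the strand of the gene:
Nfe2l2: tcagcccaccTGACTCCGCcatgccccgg
Srxn1: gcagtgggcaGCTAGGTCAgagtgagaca
Gclm: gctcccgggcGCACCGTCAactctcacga
Txnrd1: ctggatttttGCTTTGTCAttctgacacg
The Nfe2l2 stretch lies at chr2:75704885-75704913 on the minus strand and its match begins 240 bases before the start. The Srxn1 stretch lies at chr2:152105542-152105570 on the plus strand, within the transcribed part, and its match begins 28 bases after the first base of the transcript. The Gclm stretch lies at chr3:122245413-122245441 on the plus strand, 134 bases before the start, and the Txnrd1 stretch at chr10:82859104-82859132 on the plus strand, 92 bases before 1 of the 3 starts listed for that gene. No core was found in the windows of Nqo1, Keap1, Ephx1 and Aox1. A match describes the letters in a window and was not tested for binding, and the windows with a match belong to genes that rose in hypo pups (Srxn1, Txnrd1) as well as to genes that did not pass the test (Nfe2l2, Gclm).

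All 14 probes lay well above background in both channels on all 34 arrays, and none was saturated or marked as an outlier, so no member was lost to a filter on low values. Hepatocyte markers, among them Alb, were well above background on every array. Genes of pancreatic acinar cells stood out on 4 arrays (control males 522 and 832, control female 831 and hypo+ female 543), where the mean log2 ratio over 12 such genes was 2.40 to 4.89 against 0.42 to 0.84 on the other 30 arrays. Of these 12 genes, 4 were well above background on every array. Markers of Kupffer, erythroid, endothelial, bile duct and stellate cells gave no call in hypo or hypo+ pups against controls of both sexes. Of all probes, 0.95% and 0.585% were called in these comparisons. At such shares so few markers would rarely give a call, so this count does not show that cell composition was unchanged. In whole liver, fewer cells of a type and less RNA per cell cannot be told apart.

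In hypo pups, Nqo1, Aox1, both Ephx1 probes and the 2 brighter probes of Srxn1 rose by 1.41-fold to 2.39-fold over both sexes. Counted by sex, 7 of 14 probes lay above every control in males and 8 of 14 in females, where 3.08% and 1.77% of all probes had no overlap in either direction. Txnrd1 and the dimmest Srxn1 probe rose less. Gclc was higher without passing the test, whereas Gclm, Hmox1 and Nfe2l2 itself stayed within 1.08-fold of controls. The pups that received hormone on top of the goitrogen had higher Nqo1, Ephx1 and Aox1 than controls as well, and a higher signal of the brightest Srxn1 probe. With slide as a fixed block, only Aox1 and that Srxn1 probe still passed the test in hypo+ against control. No probe of the group passed the test between hypo+ and hypo in the main fit. In hyper pups no member passed the test. The members are taken up below by their role, and the tests over all comparisons follow.

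Among the regulators, Nfe2l2 did not pass the test. Its brighter probe lay between -0.57 and 0.03 in control males and between -0.48 and -0.28 in hypo males. In females it lay between -0.42 and -0.26 in controls and between -0.54 and -0.13 in hypo pups, and the groups overlapped in both sexes. The log2 change over both sexes was -0.02 ± 0.07 (standard error, SE, of the fit, n = 8 control and 9 hypo pups), and -0.02 ± 0.06 by the other probe. In hypo+ pups both probes were slightly lower than in controls, by -0.170 ± 0.079 and -0.155 ± 0.063, which did not pass the test (adjusted p = 0.449 and 0.334). Keap1, the repressor of NRF2, measured 0.32, 0.39, 0.56 and 0.66 in control males and 0.55, 0.76, 0.77 and 0.99 in hypo males. Control females measured 0.33, 0.51, 0.57 and 0.72 and hypo females 0.59, 0.70, 0.77, 0.85 and 0.97. Hypo pups were thus mostly at the upper end with overlap in both sexes, and the change of 0.26 ± 0.08 had an adjusted p of 0.165. In hypo+ pups the change of Keap1 was 0.32 ± 0.09 (adjusted p = 0.0846).

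Nqo1, which encodes a quinone reductase and is widely used as a readout of NRF2, separated hypo pups from controls completely. Its log2 ratio was -1.35, -1.20, -1.18 and -1.07 in control males and -0.60, -0.18, -0.04 and -0.03 in hypo males. Control females gave -1.21, -1.02, -0.91 and -0.89, and hypo females -0.68, -0.60, -0.41, 0.01 and 0.23. Even the lowest hypo pup of each sex was above the highest control. The change over both sexes was 0.855 ± 0.113, or 1.81-fold (adjusted p = 3.42e-05). In hypo+ pups the values were -0.75, -0.71, -0.69 and -0.53 in males and -0.48, -0.48 and -0.19 in females. These 7 pups also lay above every control of their sex, by 0.58 ± 0.12 or 1.49-fold (adjusted p = 0.0197). Leaving out control female 523 or hypo+ female 601 took this last call to an adjusted p of 0.0601 and 0.0551, and without the 4 arrays high in acinar genes it was 0.138.

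Srxn1 encodes sulfiredoxin, which restores over-oxidised peroxiredoxins. Its brightest probe gave -0.83, -0.78, -0.71 and -0.58 in control males and -0.37, -0.19, 0.17 and 0.29 in hypo males. In females it gave -0.81, -0.77, -0.72 and -0.71 in controls and -0.32, -0.18, -0.07, -0.06 and 0.14 in hypo pups. Controls were tightly grouped and hypo pups spread wider, with no overlap in either sex. The 3 probes rose by 0.68 ± 0.07, 0.50 ± 0.08 and 0.40 ± 0.07 (adjusted p = 1.25e-06, 0.000395 and 0.00244), so they differed in size but not in direction. The smaller changes came from probes whose pup signal was between 209 and 472 and between 215.5 and 402.5 units, against 1599.5 to 5092.5 for the brightest. Hypo+ pups measured -0.36, -0.28, -0.20 and -0.00 in males and -0.36, -0.33 and -0.20 in females with the brightest probe, above every control. The rise against controls was 0.49 ± 0.08 for that probe (adjusted p = 9e-04) and 0.283 ± 0.083 and 0.215 ± 0.078 for the others (adjusted p = 0.113 and 0.254).

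Txnrd1 encodes the cytosolic thioredoxin reductase, which keeps thioredoxin reduced with NADPH. It measured -0.80, -0.74, -0.64 and -0.56 in control males and -0.72, -0.40, -0.06 and 0.07 in hypo males, with hypo male 891 inside the control range. In females, controls lay between -0.70 and -0.56 and hypo pups between -0.46 and -0.08, without overlap. The change over both sexes was 0.40 ± 0.08, or 1.32-fold (adjusted p = 0.00667). In hypo+ pups it was 0.26 ± 0.09 and did not pass the test (adjusted p = 0.185), although the 3 hypo+ females, from -0.47 to -0.29, were above every control female.

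Gclc and Gclm encode the catalytic and modifier subunits of glutamate-cysteine ligase, the first enzyme of glutathione synthesis. Gclc measured 2.69, 2.71, 2.76 and 2.78 in control males and 2.85, 3.11, 3.45 and 3.53 in hypo males, which did not overlap. Control females spread from 2.46 to 3.19 and overlapped the hypo females, which lay between 2.95 and 3.52. The change of 0.475 ± 0.122 had an adjusted p of 0.0531, just above the threshold. It fell below the threshold in 8 of 34 fits that left out 1 array, with adjusted p between 0.0161 and 0.156. It also did so with normexp correction (0.0316), Cy5 alone (0.0288), a filter on dim probes (0.0491), slide as a random block (0.0166) and no litter block (0.0408). It did not with median centring, the authors' values, the scanner's ratio, or slide or scan batch as a fixed block. Nor did it with only the compared groups or without the arrays high in acinar genes. In hypo+ pups Gclc was 0.28 ± 0.13 above controls (adjusted p = 0.441). Gclm differed from controls by 0.11 ± 0.06 in hypo pups and 0.13 ± 0.07 in hypo+ pups (adjusted p = 0.796 and 0.518). The 95% confidence interval in hypo pups was -0.02 to 0.24 for Gclm and 0.23 to 0.72 for Gclc, and the difference between the genes was not tested.

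Ephx1 and Aox1 encode microsomal epoxide hydrolase and an aldehyde oxidase, enzymes that detoxify epoxides and aldehydes. Their estimated changes in hypo pups were larger than those of the antioxidant enzymes, but differences between genes were not tested. The brighter Ephx1 probe gave -1.88, -0.63, -0.10 and 0.24 in control males and 0.56, 0.57, 0.61 and 0.78 in hypo males. In females it gave -0.55, -0.54, -0.39 and 0.02 in controls and 0.55, 0.78, 1.04, 1.09 and 1.17 in hypo pups. Hypo pups lay above all controls in both sexes, and control male 522, with the value of -1.88, was far below the other controls on both probes. The rise was 1.26 ± 0.22 by 1 probe and 1.25 ± 0.22 by the other, or 2.39-fold and 2.38-fold (adjusted p = 0.00198 and 0.00204). Without the 4 arrays high in acinar genes, which include control male 522, it was 1.02 and 1.04 (adjusted p = 0.00826 and 0.00547). Hypo+ pups spread widely, at -0.06, 0.59, 0.91 and 1.06 in males and 0.01, 0.73 and 1.31 in females. They were higher than controls by 1.14 ± 0.24 and 1.08 ± 0.24 (adjusted p = 0.0208 and 0.0287), with 1 pup of each sex inside the control range. This call rested on single pups: without hypo+ female 601 the adjusted p was 0.124 and 0.159, without hypo+ male 363 it was 0.0508 and 0.0656, and without control male 881, hypo+ male 761, hypo+ female 763 or control female 831 the dimmer probe alone missed the threshold (0.0574 to 0.0614).

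Aox1 gave 0.17, 0.23, 0.34 and 0.45 in control males and 0.79, 1.36, 1.46 and 1.79 in hypo males. Control females gave 0.11, 0.11, 0.20 and 0.29, and hypo females 0.63, 1.499, 1.52, 1.54 and 1.93. The groups were far apart, and the rise of 1.15 ± 0.16 or 2.22-fold had an adjusted p of 5.97e-05. In hypo+ pups Aox1 measured 0.74, 0.98, 0.99 and 1.34 in males and 0.67, 1.29 and 2.08 in females, again above all controls, with a change of 0.95 ± 0.17 (adjusted p = 0.00462).

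Hmox1, which encodes the inducible haem oxygenase and answers to haem and to the repressor BACH1 as well as to NRF2, did not follow the other targets. It lay between -0.73 and -0.40 in control males and between -0.73 and -0.29 in hypo males. In females the ranges were -0.63 to -0.35 in controls and -0.63 to -0.32 in hypo pups, which coincide almost fully. Its change was 0.045 ± 0.074 in hypo pups, with a 95% confidence interval from -0.11 to 0.20, and 0.10 ± 0.08 in hypo+ pups (adjusted p = 1 and 0.776).

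**Figure D1:**
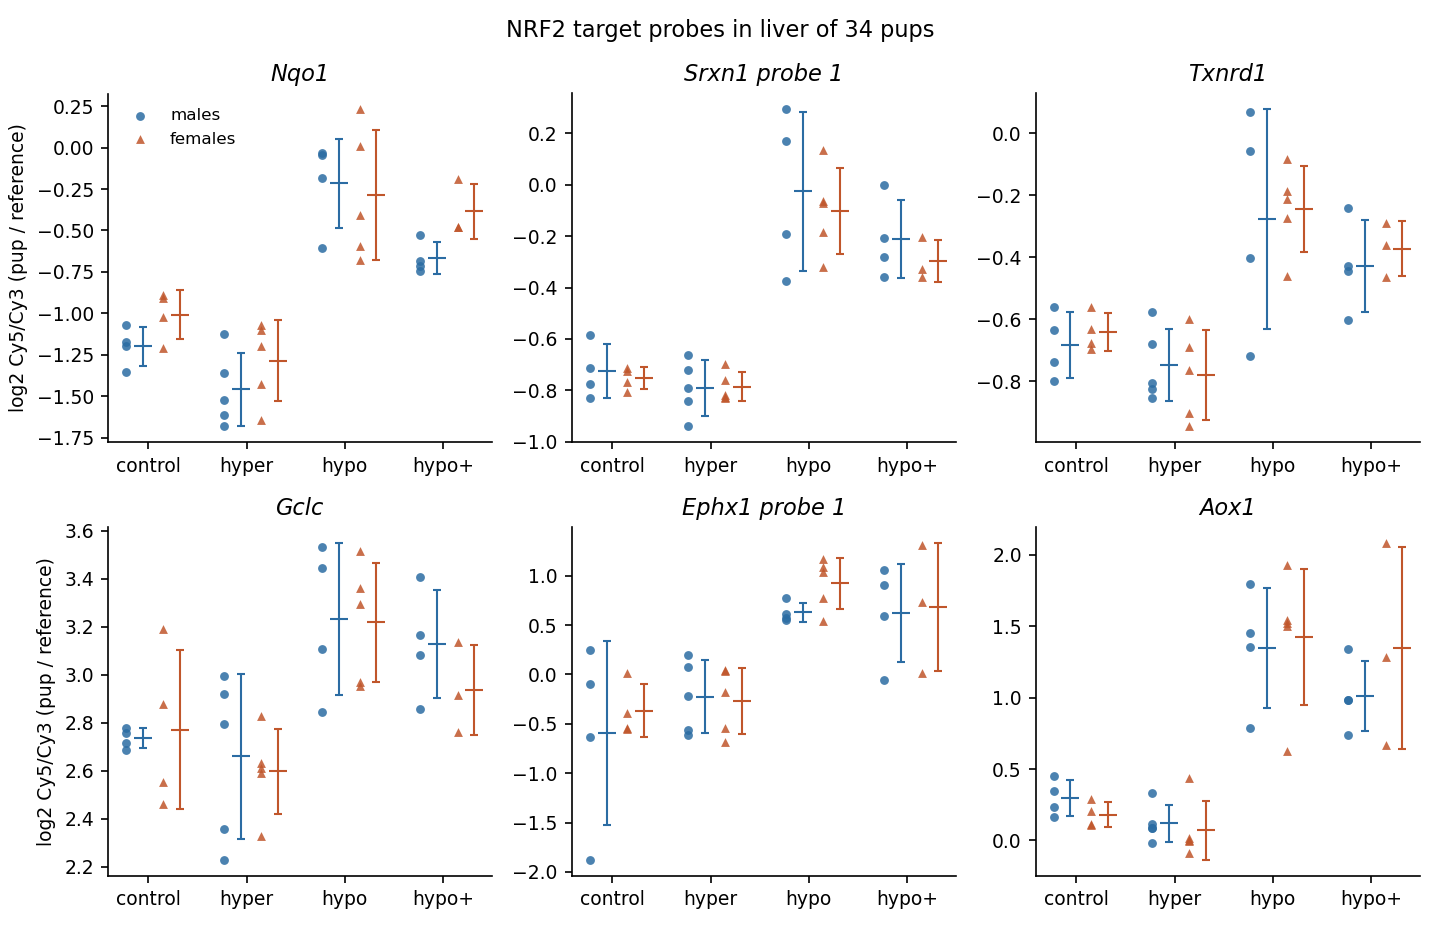
Log2 ratio of pup to reference RNA (vertical axis) for 6 probes of the NRF2 group in each of the 34 pups, by treatment (horizontal axis) and sex (blue circles, males; orange triangles, females), with the group mean and SD beside the points. The hypo and hypo+ pups lie above the control and hyper pups for Nqo1, Srxn1 and Aox1, with more overlap for Txnrd1, Gclc and Ephx1.

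Each probe was tested with limma on the log2 ratios, with Benjamini-Hochberg adjustment over all probes, and called when the adjusted p was below 0.05. With both sexes in 1 fit, 8 of the 14 probes were called in hypo against control, all of them higher, where 0.95% of all probes were called in either direction. They belonged to 5 genes, Nqo1, Srxn1, Txnrd1, Ephx1 and Aox1, and all 10 genes had a median change of 0.44 by their brightest probe against 0.00 over all named genes. Within a sex fewer probes passed. In males Nqo1, Aox1 and the brightest Srxn1 probe were called (3 of 14, where 0.0971% of all probes were), and in females the brightest Srxn1 probe and both Ephx1 probes (3 of 14, against 0.155%). In males Nqo1 missed the threshold with slide or scan batch as a fixed block, at changes of 1.001 and 0.998 (adjusted p = 0.055 and 0.052). The change of Nqo1 was 0.986 ± 0.126 in males and 0.720 ± 0.167 in females, and that of Aox1 1.049 ± 0.162 and 1.245 ± 0.243. The test of the sex difference called none of the 14 probes and 0% of all probes, with a lowest unadjusted p of 0.207 among the members. Hypo pups were higher than the controls hybridised on the same slide on 7 of 7 slides for Nqo1, Aox1, all Srxn1 and both Ephx1 probes. Keap1, Gclc and Txnrd1 were higher on 6, Gclm, Hmox1 and the brighter Nfe2l2 probe on 4 and the dimmer Nfe2l2 probe on 2. The share of all probes higher on all 7 was not computed. With slide as a block, the change of Nqo1 was 0.84 and that of Aox1 1.22 (adjusted p = 0.0011 and 6.96e-06). Without the 4 arrays high in acinar genes, 7 of 14 probes were called over both sexes, where 0.478% of all probes were, and none in males, where 2 controls were left and 0.00486% of all probes were called. With median centring instead of loess none of the 14 was called, where 0.0291% of all probes were, at changes of 0.868 for Nqo1 and 1.122 for Aox1 (adjusted p = 0.133 and 0.0828).

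**Figure D2:**
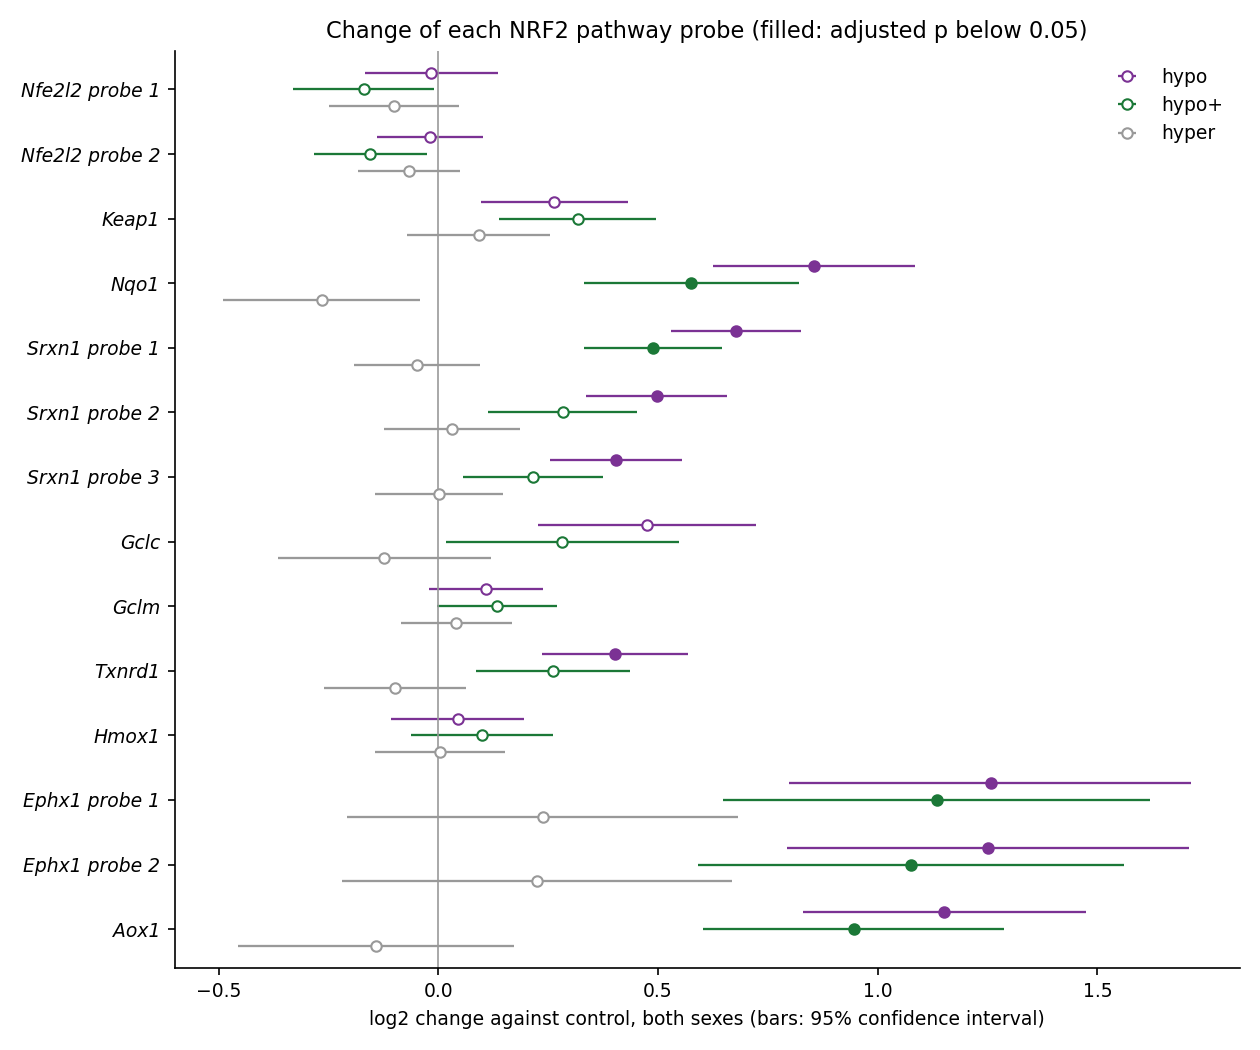
Log2 change against control over both sexes (horizontal axis) for each of the 14 probes in hypo, hypo+ and hyper pups, with 95% confidence intervals and filled points where the adjusted p was below 0.05. Of the 14 probes, 8 are filled for hypo, 5 for hypo+ and none for hyper.

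Hypo+ pups were compared with the same controls, so the comparison is not independent of the last. Over both sexes 5 of 14 probes were called, all higher (Nqo1, the brightest Srxn1 probe, both Ephx1 probes and Aox1), where 0.585% of all probes were called. No member was called within males or within females, where 0.0267% and 0.0219% of all probes were called, and unadjusted p-values were below 0.05 for 9 of 14 probes in males and 8 of 14 in females, against 7.56% and 4.79% of all probes. The hypo+ and control pups did not overlap for 5 of 14 probes in males and 6 of 14 in females, against 4.12% and 5.88% of all probes. On each of the 5 slides that carried both groups, hypo+ pups were higher than controls for Nqo1, Aox1, Ephx1, Gclc, Txnrd1 and the 2 brighter Srxn1 probes. Keap1, Hmox1 and the dimmest Srxn1 probe were higher on 4, Gclm and the brighter Nfe2l2 probe on 2 and the dimmer Nfe2l2 probe on 1. The share of all probes higher on all 5 was not computed. With slide as a block, 2 of the 14 were called, where 0.199% of all probes were, the brightest Srxn1 probe at 0.40 and Aox1 at 0.77 (adjusted p = 0.0157 and 0.0169), and without the 4 arrays high in acinar genes 3 were called, Aox1 and both Ephx1 probes, where 0.102% of all probes were. The sex difference of this change called none of 14 probes and 0% of all probes.

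Whether goitrogen raised these genes alike with and without injected hormone was tested in 2 ways. The direct comparison of hypo+ with hypo called none of the 14 probes over both sexes, where 2.72% of all probes were called, and none in males or in females, where 0.369% and 0.556% were. Of the 14 probe values, 11 were below 0, some of them from several probes of 1 gene. The median over all probes was -0.006. By their brightest probe, 7227 of all 16535 named genes were above 0 and the rest at or below it. An unadjusted p below 0.05 was found for 5 of the 14 (Nqo1, all 3 probes of the single gene Srxn1 and the dimmer Nfe2l2 probe), against 12.9% of all probes. Nqo1 was lower in hypo+ than in hypo pups by -0.28 ± 0.12 (95% confidence interval -0.52 to -0.04, adjusted p = 0.261). The interval for the brightest Srxn1 probe was -0.34 to -0.04, for Aox1 -0.54 to 0.13 and for the brighter Ephx1 probe -0.60 to 0.35. These intervals allow a partial fall after injection, and a p that misses the threshold does not show that the groups were alike. No probe separated hypo+ from hypo pups in either sex (0 of 14, against 4.61% of all probes in males and 5.06% in females). With slide as a block the first and second Srxn1 probes were lower in hypo+, by -0.310 and -0.346 (adjusted p = 0.0292 and 0.0208), where 1.86% of all probes were called. On the 4 slides with both groups the brightest and dimmest Srxn1 probes, Gclc, Txnrd1, both Ephx1 probes and the brighter Nfe2l2 probe were lower in hypo+ on all 4. Nqo1, Aox1, Hmox1 and the second Srxn1 probe were lower on 3. Keap1 and Gclm were higher in hypo+ on 3 of the 4 slides and the dimmer Nfe2l2 probe on 2. The share of all probes lower on all 4 slides was not computed.

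The second test set the goitrogen change under injection, hypo+ minus hyper, against the goitrogen change without it, hypo minus control. Here too none of the 14 probes was called, where 0.0316% of all probes were. Of the 14 probe values 13 were below 0, some of them from several probes of 1 gene. The median over all probes was -0.003. By their brightest probe, 7890 of the 16535 named genes were above 0 and the rest at or below it. The lowest was -0.40 for the dimmer Ephx1 probe, and 1 value had an unadjusted p below 0.05, against 8.26% of all probes. The difference for Nqo1 was -0.01 ± 0.16, with an interval from -0.34 to 0.31, and that for the brightest Srxn1 probe -0.14 ± 0.10. This p was 0.0347, for the second Srxn1 probe (-0.245 ± 0.111, adjusted p = 0.552). For Ephx1 the interval was wide, from -1.01 to 0.29 by the brighter probe. Hyper pups had received a larger dose than hypo+ pups, so that this contrast does not hold the dose constant.

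**Figure D3:**
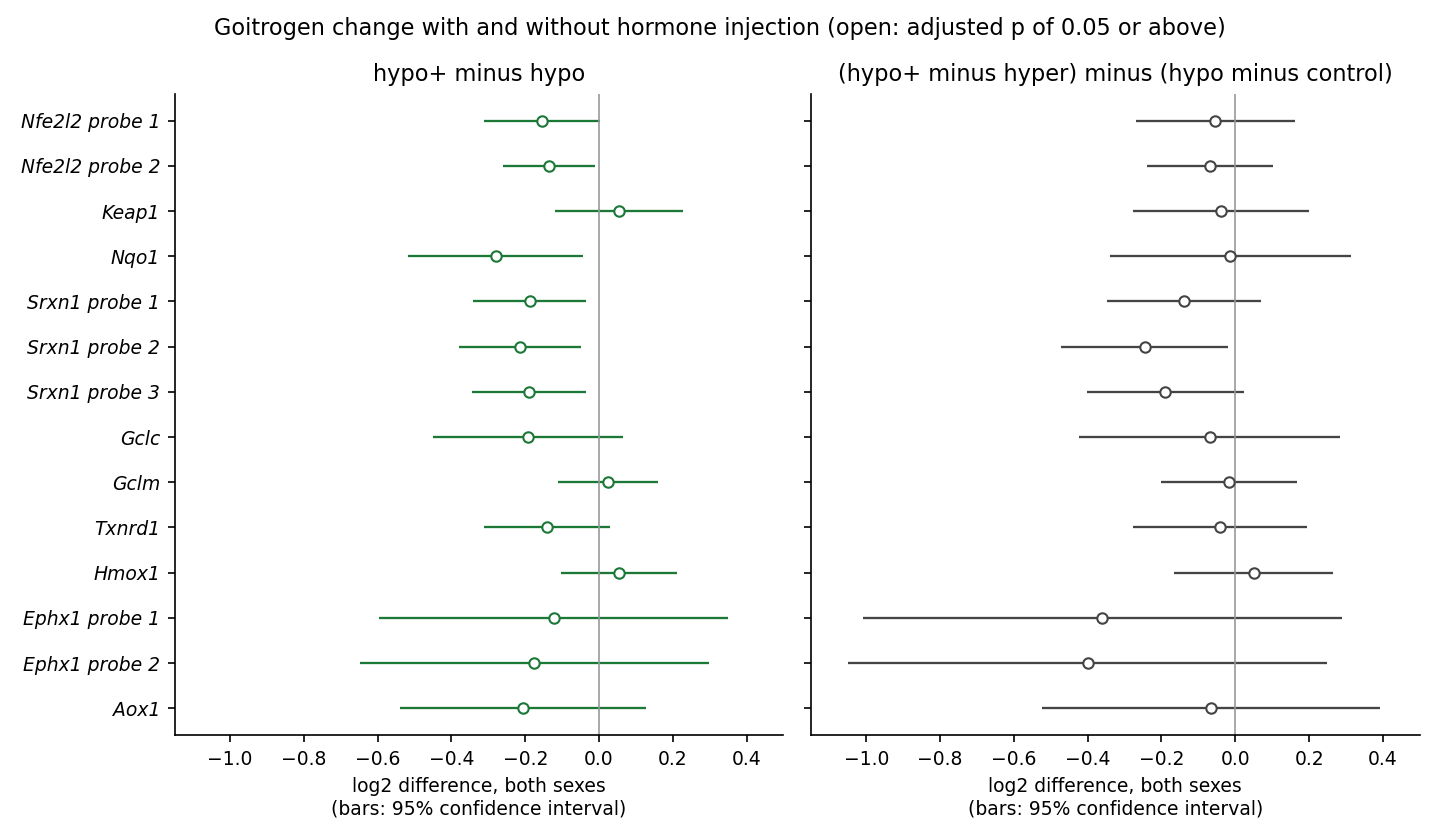
Left, log2 difference between hypo+ and hypo pups, and right, difference between the goitrogen change with injection and without it, over both sexes (horizontal axes), for each of the 14 probes with 95% confidence intervals. All points are open, because no adjusted p was below 0.05, and most values of the left panel lie below 0.

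After hormone injection alone no member passed the test. In hyper against control no probe was called over both sexes, in males or in females, where 0.692%, 0.0753% and 0.158% of all probes were. The groups overlapped for all 14 probes in both sexes, while 1.27% of all probes in males and 2.54% in females did not overlap. Nqo1 measured -1.68, -1.61, -1.52, -1.36 and -1.12 in hyper males and -1.64, -1.43, -1.20, -1.10 and -1.07 in hyper females. These reached below the controls, and the change was -0.27 ± 0.11 (unadjusted p = 0.0214, adjusted p = 0.552). The other members lay between -0.14 and 0.24. Against hyper pups, which had also been injected, hypo+ pups were higher in 6 of 14 probes over both sexes, where 2.36% of all probes were called. These were Nqo1 (0.84 ± 0.11, adjusted p = 0.000175), the brightest Srxn1 probe, Txnrd1, both Ephx1 probes and Aox1 (1.09 ± 0.16). Within males none was called and within females the brightest Srxn1 probe was, where 0.00729% and 0.0923% of all probes were called. The hypo+ and hyper pups did not overlap for 4 of 14 probes in males and 5 of 14 in females, against 2.81% and 5.83% of all probes.

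Of 5 known TH targets in the same livers, 3 fell in hypo pups and 3 were higher in hypo+ than in hypo (Dio1, Thrsp and Me1). Klf9 and Hr, named after their values were seen, differed from controls by -0.432 and 0 in hypo pups (adjusted p = 0.259 and 1). Dio1 encodes the deiodinase that converts T4 to T3 and Thrsp a lipogenic protein, and both fell in hypo pups, Dio1 by -1.62 ± 0.18 and Thrsp by -1.515 ± 0.277 (adjusted p = 2.74e-06 and 0.00256). Dio1 measured 5.599 to 6.422 in the 8 controls, 3.47 to 5.07 in the 9 hypo pups and 5.78 to 6.63 in the 7 hypo+ pups, so hypo+ pups were back in the control range or above it. Dio1 was 1.77 ± 0.19 and Thrsp 1.38 ± 0.29 higher in hypo+ than in hypo pups (adjusted p = 2.02e-07 and 0.00452). The difference of the goitrogen change with and without injection, which called no NRF2 member, was 1.44 ± 0.26 for Dio1 (adjusted p = 0.0356) and 0.375 ± 0.394 for Thrsp (adjusted p = 0.862). Me1, malic enzyme, which supplies NADPH and stands in both the TH and the NADPH lists, fell by 0.44 on the log2 scale in hypo pups and was 0.81 ± 0.09 higher in hypo+ than in hypo (adjusted p = 0.00358 and 2.9e-07).

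Other genes commonly placed under NRF2 were read from lists by role. Of 14 genes of glutathione use and conjugation, 6 rose in hypo pups and none fell (Gstm1, Gstm3, Gstp1, Gsta2, Gstm4 and Gsta4), with a list median of 0.30. The largest were the glutathione transferases Gstm1, 1.46 ± 0.13 or 2.75-fold, and Gstm3, 1.21 ± 0.11 or 2.31-fold (adjusted p = 6.02e-08 and 3.14e-08). Gstm1 measured 1.97 to 2.45 in controls, 3.11 to 4.16 in hypo pups and 3.32 to 4.02 in hypo+ pups. In hypo+ pups it was 1.44 ± 0.14 above controls and -0.02 ± 0.14 from hypo (adjusted p = 3.21e-07 and 0.982). Gstp1 rose by 0.64 ± 0.09 in hypo and 0.59 ± 0.09 in hypo+ pups (adjusted p = 5.29e-05 and 9e-04), and Gsta2 by 0.80 ± 0.17 in hypo pups (adjusted p = 0.0112). Gstm4 rose by 0.465 ± 0.085 in hypo pups (adjusted p = 0.00244) and differed from controls by 0.16 ± 0.09 in hypo+ pups (adjusted p = 0.605).

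Of 8 genes of the thioredoxin and NADPH list, Prdx1, a peroxiredoxin named like Gsta4 after its values were seen, rose (0.25 ± 0.06, adjusted p = 0.0231) and Me1 fell. Of 5 iron and haem genes, Ftl1, ferritin light chain, rose (0.38 ± 0.09, adjusted p = 0.0389). Of 8 genes of detoxification and efflux, the conjugate exporter Abcc3 rose in hypo and hypo+ pups, by 0.603 ± 0.145 and 0.695 ± 0.153 (adjusted p = 0.0315 and 0.0287). Osgin1, an NRF2-linked growth inhibitor, differed from controls by -0.538 ± 0.145 in hypo pups (adjusted p = 0.0728) and was 1.18 ± 0.15 higher in hypo+ than in hypo pups (adjusted p = 5.36e-06). Of 8 other regulators of the pathway (Bach1, 3 small MAF genes, Cul3, Rbx1, Sqstm1 and Nfe2l1), none was called in hypo or hypo+ pups against controls or between them. Of all probes, 0.95%, 0.585% and 2.72% were called in these comparisons, so a count of none among 8 genes is near those shares. Against hyper pups, Bach1 and Sqstm1 were higher in hypo+ pups, by 0.443 ± 0.109 and 0.307 ± 0.083 (adjusted p = 0.0267 and 0.0444), named after their values were seen. Of 12 genes under the xenobiotic receptors CAR and PXR, which also act on some of these targets, Cyp2c55 rose in hypo pups by 0.52 ± 0.10 and was -0.45 ± 0.10 lower in hypo+ than in hypo (adjusted p = 0.00453 and 0.0129). Cyp2b10 and Cyp3a11, the usual readouts of these receptors, named here after their values were seen, differed from controls by 0.270 ± 0.186 and -0.001 ± 0.155 in hypo pups (adjusted p = 0.902 and 1). Over all 16535 named genes, 104 rose and 115 fell in hypo pups.

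**Figure D4:**
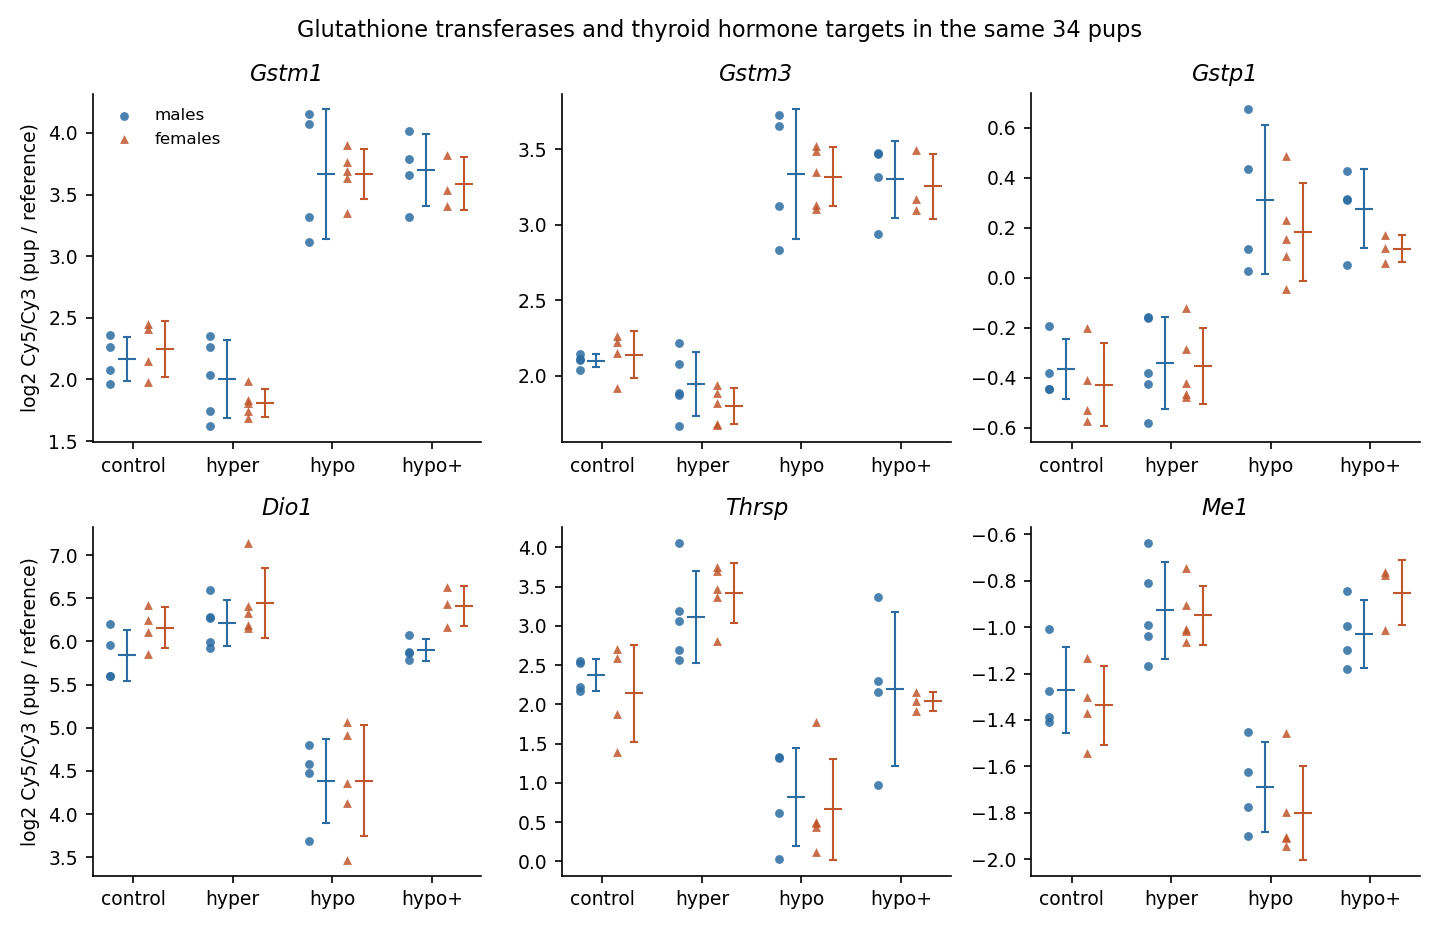
Log2 ratio of pup to reference RNA (vertical axis) for 3 glutathione transferase genes (upper row) and 3 TH targets (lower row) in the 34 pups, by treatment and sex, with the group mean and SD beside the points. The transferases are high in both hypo and hypo+ pups, whereas the group means of Dio1, Thrsp and Me1 are lowest in hypo pups.

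The genes whose pattern over the 34 arrays was most like that of Nqo1, each array taken relative to the controls of its sex, were Gstm3 (Pearson r = 0.91), Gstm1 (0.89), Entpd5 (0.89), Creg1 (0.88) and Pir (0.87), from 11558 genes with a probe above background on every array. Because they were picked for following Nqo1 on the same arrays, their changes restate that choice: against controls Pir differed by 0.967 in hypo and 0.849 in hypo+ pups, Entpd5 by 0.439 and 0.265, and Creg1 by 0.455 and 0.357. Within the NRF2 group, the Srxn1 probes (0.89, 0.73 and 0.75 from the brightest to the dimmest), Txnrd1 (0.84), Aox1 (0.835) and Gclc (0.75) were closest to Nqo1. Ephx1 (0.68 and 0.69) followed, while Keap1 (0.43), Gclm (0.29), Hmox1 (0.08) and Nfe2l2 (0.05 and 0.04) had lower coefficients. These coefficients describe arrays that share the treatment groups and carry no test.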

How the data were processed

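Liver RNA of 34 pups was hybridised to Agilent 4x44k arrays. As deposited, the scanner files hold spot intensities (median signals without background subtraction) and a log10 ratio of Cy5 to Cy3 made by the scanner software from its processed signals. The authors also deposited log2 ratios, by their methods after loess normalization in MAANOVA. That these values are of that step was inferred. Their match was computed only to the ratios of the scanner signals before normalization (Pearson r from 0.846 to 0.995), which cannot identify the step. Here control and outlier-flagged spots were left out, intensities were loess-normalized within arrays, and spots of a probe were averaged (R 4.3.3, limma 3.58.1). No dyes were swapped, so a dye effect is shared by all arrays. Depth does not apply to arrays, and the number of pups limits precision.

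Each sex was fitted alone with its 17 arrays, as the study did, with limma in place of its permuted Fs statistic. Within a sex every pup came from a different litter. All 34 arrays were also fitted together, with litter as a random block (correlation 0.0714, 20 litters, 14 of them with both sexes). The leading digits of a pup's number were taken as its litter. All pups of a litter had the same treatment, so each group over both sexes held fewer litters than pups. The goitrogens were given to the dams, so for them the litter was the treated unit. The same correlation was applied to every probe, and the likeness of littermates was not tested for single members. For Aox1, female and male of each hypo litter with both sexes measured 1.521 and 1.795, 1.541 and 1.455, 0.63 and 0.787, and 1.499 and 1.356. For Nqo1 they measured 0.231 and -0.031, -0.596 and -0.042, -0.677 and -0.603, and -0.406 and -0.181. Where littermates were more alike than the correlation of 0.0714 implies, the SE and adjusted p over both sexes overstate the replication. The Benjamini-Hochberg adjustment covered the 41174 probes. Of 33541 accessions, 16806 had a symbol in RefSeq. Genes outside the group were named when called and among the 12 list genes with the largest mean change, when closest to Nqo1, or as known markers, with exceptions stated where they are named, and their brightest probe was used. The members and lists were chosen with earlier results of these data known. The fit was run on simulated data as a check of the code, and the outcome is not given here. Alternatives were normexp correction, median centring, other ratios, a filter on dim probes, slide, scan and litter terms, only the compared groups, and leaving out each array. Pups with higher serum T4 and arrays the authors removed were not analysed here.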

Additional observations from a re-analysis of the deposited data

Results flagged for a closer look

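Of 98 sets of 4 or 5 pups (1 probe in 1 group), 6 held a pup whose gap to its nearest neighbour was large against the range of the set by Dixon's criterion, which chance alone meets in about 1 of 20 sets. For Srxn1 probe 2, hyper male 498 measured -0.213, with the nearest male at -0.525 and the other end of the group at -0.605. For the same probe, control female 831 measured -0.438, with the nearest at -0.527. This pup was also high in acinar genes. For Srxn1 probe 3, hypo+ male 363 measured 0.144, with the nearest at -0.151. For Hmox1, hyper female 783 measured -0.372, with the nearest at -0.566. For Ephx1 probe 2, control female 523 measured 0.04, with the nearest at -0.407. For Aox1, hyper female 621 measured 0.435, with the nearest at 0.014. None of the 6 was a hypo pup.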

How the results depend on the processing

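No called value changed direction under any alternative: 242 of 305 values kept their call, and 708 of 765 when 1 array was left out. For the fits that left out 1 array, the share of all probes called is not reported here. Counts below are of the 14 member probes. With median centring instead of loess, 0 were called in every comparison, where the share of all probes called in hypo against control over both sexes fell from 0.95% to 0.0291%, at a median SD between member replicates of 0.346 against 0.166 with loess. In hypo against control, males had 3 called probes (0.0971% of all probes), and 1 by the scanner's ratio (0.0291%) and by Cy5 alone (0.0534%). They had 0 with only the compared groups (0%) or without the arrays high in acinar genes (0.00486%), an alternative chosen after seeing the data. Females had 3 (0.155%), and 1 by the scanner's ratio (0.0874%) and by Cy5 alone (0.0607%). They had 5 with slide (0.323%) or scan batch (0.272%) as a fixed block and 7 with slide as a random block (0.364%). In hypo+ against control over both sexes, 5 became 2 with slide as a fixed block (0.199% of all probes against 0.585%). The count was 3 with only the compared groups (0.204%) or without the acinar-high arrays (0.102%). In hypo+ against hypo over both sexes, 0 became 2 with slide as a fixed block (1.86% of all probes against 2.72%) and 1 as a random block (3.81%). In hypo+ against hyper over both sexes, 6 became 3 with slide as a fixed block (0.607% of all probes against 2.36%). In males 0 (0.00729%) became 1 by the authors' values (0.0121%), Cy5 alone (0.00971%) and the filter on dim probes (0.0109%) and 2 with slide as a random block (0.0583%). In females 1 (0.0923%) became 0 by the scanner's ratio (0.0121%), Cy5 alone (0.00486%), slide as a fixed block (0.00729%) and only the compared groups (0.00729%). It became 3 with scan batch (0.206%), 4 with slide as a random block (0.216%) and 2 without the acinar-high arrays (0.126%).

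Leaving out 1 array gave 1 to 3 called probes for hypo against control in males (1 without control 832, 522 or 391 or hypo 576 or 311), 1 to 6 in females (1 without control 831, 394 or 882 or hypo 743 or 316, 6 without hypo 721) and 8 to 9 over both sexes. For hypo+ against control it gave 0 to 1 in females and 2 to 6 over both sexes (2 without hypo+ female 601, 6 without hypo+ female 543). It gave 0 to 1 for hypo+ against hypo in males (1 without hypo 723), and for hypo+ against hyper 0 to 2 in males, 0 to 4 in females and 4 to 8 over both sexes. No paired analysis was possible because the animal numbers are unique to a pup and no litter holds 2 treatments. Slides do hold several treatments, and the fits with slide as a block and the differences within slides stand in its place. The cause of these changes was not tested.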

Other observations

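Some hypo pups stood repeatedly at an end of their group. Hypo male 311 and hypo female 316, of 1 inferred litter, had the highest value of their group for 5 and 4 of the 8 called probes, among them Nqo1 and the brightest Srxn1 probe in both. Hypo male 723 and hypo female 721, of another, had the lowest for 5 and 7 of the 8. The order was not the same for all members: hypo male 576 was highest for Txnrd1 and both Ephx1 probes, and hypo female 575 was highest for Srxn1 probe 3 and lowest for Txnrd1. These are single pups chosen for their values and no test was made.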
